A study of Mus musculus with 6 samples.

Results

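Aminoacyl-tRNA synthetases were examined in MIN6 cells with and without chronic epinephrine. The members were taken by gene symbol only, as an amino acid letter followed by "ars" with or without 1 or 2 at the end, plus Eprs, Farsa and Farsb. The rule found 37 genes among the 22298 genes of the deposited table. Symbols that end in 2 were called mitochondrial (17 genes) and the others cytosolic (20 genes), and the rule uses no measured value, although the set was proposed with earlier results of these data known. MIN6 is a mouse insulinoma line that secretes insulin, so the material was a single cell line and not primary islets. RNA from 3 control samples and 3 samples of chronic epinephrine was sequenced. In the study, chronic exposure means 3 days in 100 nM epinephrine and then 2 days without it. The sampling day for sequencing is not stated, and it remains unknown here if the sequenced cells had spent those last days without epinephrine. The study's methods describe its replicates in general as biological and independent samples, whereas the labels name no genotype, vehicle or separate culture for any sample, and the p-values measure the spread between these samples.

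Each aminoacyl-tRNA synthetase joins an amino acid to its matching tRNA, and the charged tRNAs are the substrates of the ribosome. The cytosol and the mitochondria hold separate sets of these enzymes, most of them encoded by separate nuclear genes, whereas Gars and Kars each serve both compartments. In the cytosol, 8 of the listed synthetases sit together in the multisynthetase complex on the scaffold proteins Aimp1, Aimp2 and Eef1e1. Uncharged tRNA is sensed by the kinase GCN2 (Eif2ak4), and eIF2α kinases including GCN2 and PERK raise the translation of ATF4, a transcription factor known to act on genes of amino acid supply and on many cytosolic synthetases. Beta cells secrete large amounts of insulin, and loss of PERK is known to impair them.

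Total expected counts per sample ranged from 15017065 to 18127171. All 13 beta-cell markers were above 3 counts in every sample, with a summed level of 53600 CPM (counts scaled to the TMM-normalized library size) in control 1 and between 63900 and 70600 in the other samples. At the FDR threshold explained below, 2 of these 13 markers were downregulated after epinephrine (0.612% of all genes) and 0 upregulated, and without control 1 the counts were 8 (9.46% of all genes) and 1 (12.1%). For example, Slc2a2, the glucose transporter GLUT2, was at 547 to 623 CPM in controls and 339 to 361 CPM after epinephrine. The controls differed from each other in 2 ways. Control 1 lay at -38.89 on the first principal component of log2 CPM (44.6% of the variance), against -2.37 and -0.52 for controls 2 and 3 and 12.45 to 15.93 for the epinephrine samples. Of 15 hepatocyte markers, all 15 were above 3 counts in controls 2 and 3, against 7 in control 1 and 6 to 8 in the epinephrine samples. Alb was at 33.9 and 82.3 CPM in controls 2 and 3 and between 0.194 and 0.448 CPM in the other samples. The summed hepatocyte markers, mostly Ttr, which islet cells also express, were at 855, 1160 and 1570 CPM in controls and 1640, 1570 and 1760 CPM after epinephrine, with Ttr at 837 to 1330 and 1560 to 1740 CPM. The part of these transcripts in the results below was not tested. The summed markers of other islet cells were at 177 to 214 CPM in controls and 379 to 412 CPM after epinephrine. Those of acinar and duct cells (0.331 to 1.23 CPM), leukocytes (0.857 to 4.33 CPM), endothelium (0.0572 to 0.712 CPM) and fibroblasts (1.66 to 22.6 CPM) were low in every sample. At the FDR threshold, 1 of 3 tested markers of other islet cells and 1 of 2 tested leukocyte markers were upregulated (2.02% of all genes). Of the tested hepatocyte and fibroblast markers 0 were called. In bulk RNA, fewer cells of a type and less RNA per cell cannot be told apart.

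ATF4 and its C/EBP partners bind a composite element with the core TGATGNAA, which reads TTNCATCA on the other strand, and the promoters of the synthetases were searched for these letters on both strands. RefSeq promoter windows, from 250 bases before to 50 bases after the start on GRCm38.p6, were matched by symbol for 27 of the 37 members. Others, such as Cars, Hars, Lars and Nars, had no window there. The core was present in the windows of 5 of 13 cytosolic members (38.5%) and 0 of 14 mitochondrial members. Among all 32851 windows it was present in 1304 (3.97%), and by gene in 1219 of 27025 (4.51%). All 5 belonged to the 8 matched members of a list of 12 synthetases known as ATF4 targets, and none to the 5 matched cytosolic members outside that list. The other matched members of the list, Sars, Mars1 and Eprs, lacked the core in their windows. The list was chosen with earlier results of these data known. A match within 50 bases of the start is shown for each of the 5 genes, 5′ to 3′ on the strand of the gene, in a window of 30 bases with the core in capitals, because these are stretches that the 5 cytosolic members share and the mitochondrial members lack in these windows.
Tars (chr15:11399655-11399684, minus strand): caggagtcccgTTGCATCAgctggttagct
Yars (chr4:129189895-129189924, plus strand): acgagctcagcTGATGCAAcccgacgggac
Iars (chr13:49682126-49682155, plus strand): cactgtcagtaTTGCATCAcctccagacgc
Aars (chr8:111033840-111033869, plus strand): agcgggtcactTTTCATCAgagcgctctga
Gars (chr6:55037960-55037989, plus strand): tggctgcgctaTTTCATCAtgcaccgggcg
Counted from the RefSeq start, with negative positions before it, the core began at -15 in Tars, -30 in Gars, 4 in Yars, 8 in Iars and 10 in Aars. Tars and Iars held TTGCATCA, Yars held its reverse complement TGATGCAA, and Gars and Aars held TTTCATCA. Tars was the synthetase of largest fold change below in the fit of all 6 samples. The 120 bases before its start are shown with the same core in capitals.
Tars (chr15:11399659-11399778, minus strand): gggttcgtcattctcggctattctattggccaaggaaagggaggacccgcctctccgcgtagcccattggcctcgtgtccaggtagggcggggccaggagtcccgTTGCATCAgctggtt
The sequence just after the start lay at the start of a GENCODE transcript for Tars, Yars, Iars and Gars, and did not for Aars. Nor did it for Sars, Kars, Dars, Tars2 and Sars2, whose windows held no core. For these genes the absence of the core covers the RefSeq window only. A match of letters describes these windows, and binding of a factor was not measured.

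Among the cytosolic synthetases 4 of 20 were upregulated after chronic epinephrine, and among the mitochondrial synthetases 0 of 17. The log2 fold change was above 0 for 19 of 20 cytosolic members, against 49.5% of all genes tested, with a median of 0.35 on the log2 scale. It was above 0 for 9 of 17 mitochondrial members, with a median of 0.03, and the median over all 12747 genes tested was -0.0023. All 37 members passed the filter on low counts. The 4 called genes were Nars, Sars, Tars and Cars, upregulated at an FDR under 0.05 (the adjusted p of the edgeR quasi-likelihood test over all genes tested), and no cytosolic member was downregulated. That is 4 of 20, where 2.02% of all genes tested were upregulated and 0.612% downregulated (2.63% in all). At an unadjusted p under 0.05, 11 of 20 cytosolic members were higher, against 9.19% of all genes. No member passed the study's second threshold of a 2-fold change, which 0.722% of all genes passed together with the FDR.

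**Figure D1:**
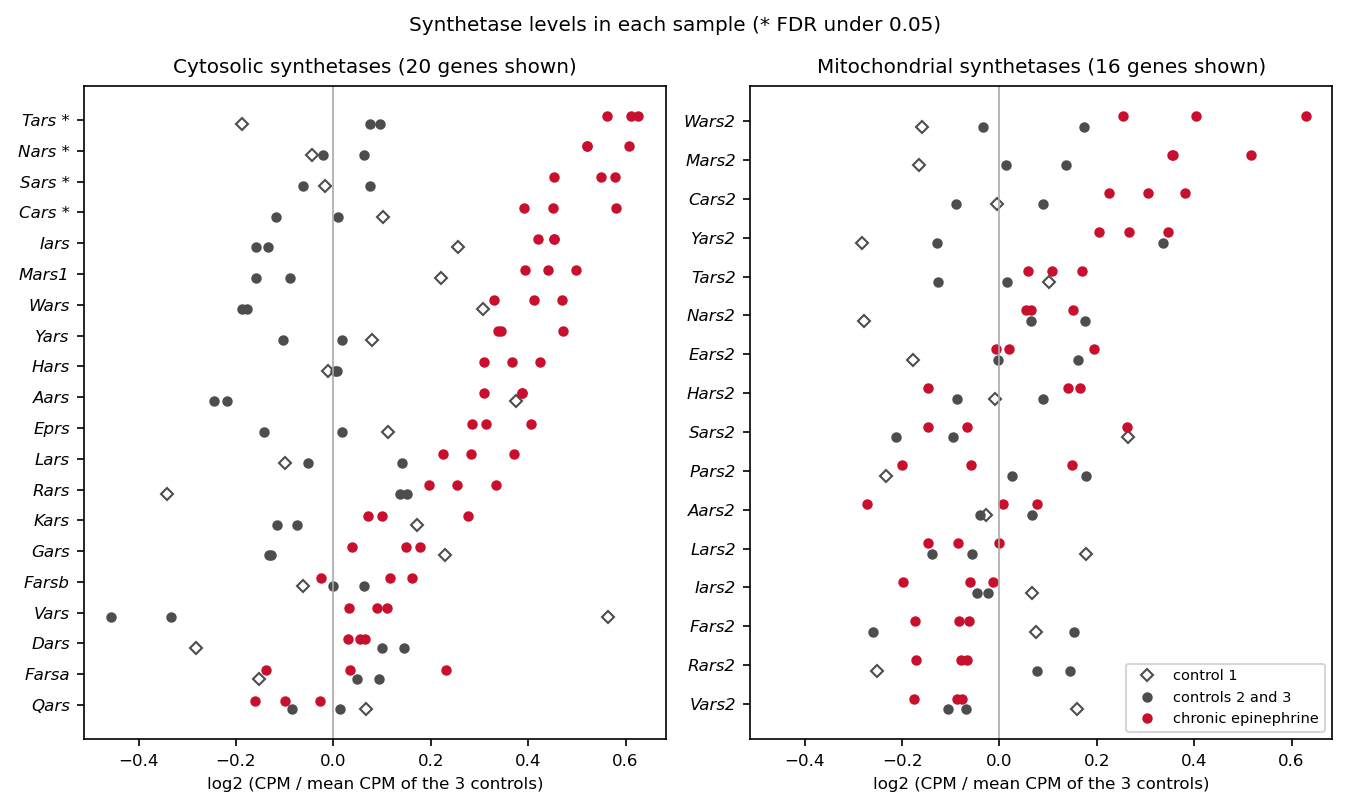
Level of each synthetase in each sample, as log2 of CPM over the mean CPM of the 3 controls (horizontal axis), with 20 cytosolic genes on the left and 16 mitochondrial genes on the right, ordered by fold change. Red points are epinephrine samples, dark points controls 2 and 3 and open diamonds control 1, and asterisks mark the 4 genes at an FDR under 0.05.

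Nars, which charges tRNA with asparagine, was at 99.3, 107 and 101 CPM in controls and at 156, 147 and 147 CPM after epinephrine. The 2 groups did not overlap, and the level was 46.2% higher (log2 fold change 0.55 ± 0.08 SE, FDR = 0.0108). Nars lies at chromosome 18, 64499647 to 64516652 (GRCm38, minus strand).

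Sars, the seryl-tRNA synthetase, was at 166, 161 and 177 CPM in controls and 251, 230 and 246 CPM after epinephrine. Every epinephrine sample was above every control, by 44.0% on the fitted scale (log2 fold change 0.53 ± 0.08 SE, FDR = 0.0149). Sars lies at chromosome 3, 108424865 to 108445209 (minus strand).

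Tars, which charges threonine and whose promoter carries the element shown above, was at 44.5, 53.4 and 54.2 CPM in controls and 78.2, 74.9 and 77.4 CPM after epinephrine. In the fit of all 6 samples it had the largest fold change among the members, 51.4% higher (log2 fold change 0.60 ± 0.10 SE, FDR = 0.0166). That was within 1 SE of Nars, and control 1 was the lowest of the 6 samples. Without control 1, Tars was at 0.51, below several members such as Aars, Iars and Wars (0.59 each). Tars lies at chromosome 15, 11382301 to 11399665 (minus strand).

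Cars, the cysteinyl-tRNA synthetase, was at 48.1, 41.3 and 45.1 CPM in controls and 67.0, 58.8 and 61.3 CPM after epinephrine. The groups were apart, with a level 39.1% higher (log2 fold change 0.48 ± 0.09 SE, FDR = 0.0390). Cars lies at chromosome 7, 143557230 to 143600090 (minus strand). An exact permutation test (two-sided) of CPM returned 0.1 for each of these 4 genes, and 3 samples against 3 allow no smaller p.

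The calls of the 4 genes depended on the samples kept. Of the 4, all were upregulated without control 1, 1 without control 2 (Nars) and 3 without control 3 (Nars, Sars and Tars), and none without epinephrine 1, 2 or 3. Over all genes, 335 were called in either direction with every sample kept. That count was 2798, 108 and 192 without controls 1, 2 and 3, and 47, 47 and 77 without epinephrine 1, 2 and 3. The log2 fold changes of the 4 genes stayed between 0.41 (Cars without control 2) and 0.65 (Tars without control 3) over the 6 fits with 1 sample left out.

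The other cytosolic members with groups that did not overlap were Hars (histidine), Yars (tyrosine), Mars1 (methionine), Iars (isoleucine), Eprs (glutamate and proline), Lars (leucine), Wars (tryptophan) and Rars (arginine). With the 4 called genes that made 12 of 20 cytosolic members whose epinephrine samples were all above the controls, where 14.3% of all genes tested were so. None of these 8 passed the FDR threshold. Their log2 fold changes ran from 0.26 (Rars, FDR = 0.365) to 0.44 (Mars1, FDR = 0.0825, and Iars, FDR = 0.101). Hars came nearest to the threshold, with 41.6, 42.1 and 42.0 CPM in controls and 54.0, 51.9 and 56.2 CPM after epinephrine (log2 fold change 0.37 ± 0.08 SE, FDR = 0.0534).

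Mars1 was singled out because its exons overlap those of Ddit3, the gene of the transcription factor CHOP, on the opposite strand. Mars1 lies at chromosome 10, 127296221 to 127311786 (minus strand), and 68 of its exon bases (2.0%) are shared. It was at 84.1, 67.8 and 64.6 CPM in controls and 97.9, 94.8 and 102 CPM after epinephrine. Ddit3 itself was at 17.2, 24.5 and 27.9 CPM in controls and 53.7, 50.5 and 54.0 CPM after epinephrine (log2 fold change 1.19 ± 0.16 SE, FDR = 0.00853). Whether the counting used strand is not given in the sources used here, so reads from the shared bases cannot be assigned to either gene. Hars and Hars2 likewise share 195 exon bases on opposite strands, and Aars shares 1326 (14.3% of its exon bases) with Exosc6 on the same strand. The largest overlap was that of Iars2, which shares 2034 exon bases (22.9%) with Rab3gap2 on the opposite strand.

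**Figure D2:**
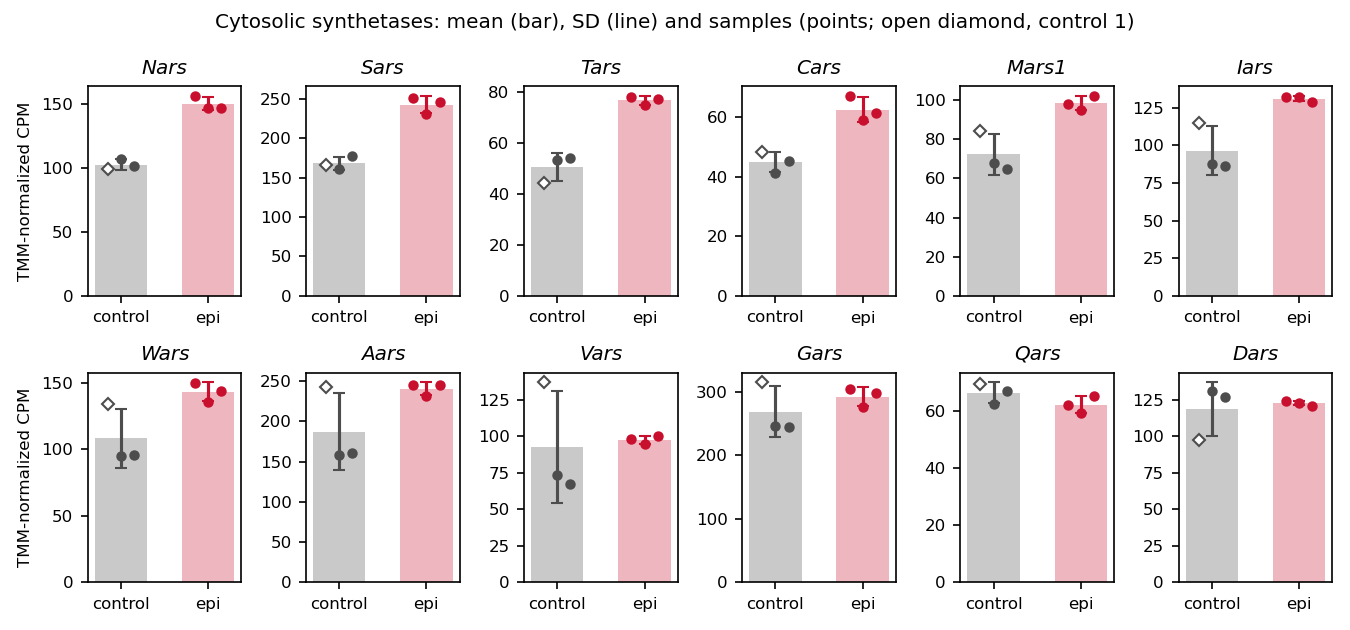
TMM-normalized CPM (vertical axes, from 0) of 12 cytosolic synthetases in control and epinephrine ("epi") samples. Bars are means, lines are SDs (n = 3), points are samples and the open diamond is control 1, which is the highest control for Cars, Mars1, Iars, Wars, Aars, Vars, Gars and Qars, the lowest for Nars, Tars and Dars, and between the others for Sars.

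Aars, Vars, Gars, Kars, Qars, Dars, Farsa and Farsb had overlapping groups. Vars, the valyl-tRNA synthetase, had the largest p of the cytosolic members. Its level was 137 CPM in control 1 but 73.5 and 67.5 CPM in controls 2 and 3, and 98.6, 94.8 and 100 CPM after epinephrine (log2 fold change 0.08 ± 0.24 SE, FDR = 0.891). The epinephrine samples thus lay between control 1 and the other controls. Aars, which charges alanine, was at 243, 158 and 161 CPM in controls and 245, 232 and 245 CPM after epinephrine, with control 1 at the level of the epinephrine samples (log2 fold change 0.36 ± 0.16 SE, FDR = 0.305).

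Farsa, the catalytic subunit of the cytosolic phenylalanyl-tRNA synthetase, was at 18.7, 21.5 and 22.2 CPM in controls and 24.4, 18.9 and 21.3 CPM after epinephrine (log2 fold change 0.05 ± 0.13 SE, FDR = 0.880). For its partner subunit Farsb the log2 fold change was 0.09 ± 0.09 (SE, FDR = 0.660). Dars, which charges aspartate, was at 97.5, 131 and 127 CPM in controls and 124, 123 and 121 CPM after epinephrine (log2 fold change 0.06 ± 0.12 SE, FDR = 0.846). Control 1 was the lowest sample for Dars, and the other 5 were within 121 to 131 CPM. Qars, the glutaminyl-tRNA synthetase, was the cytosolic member with a log2 fold change below 0, at -0.09 ± 0.08 (SE, FDR = 0.618). The 2 genes that serve both compartments, Gars and Kars, had log2 fold changes of 0.12 ± 0.12 (SE, FDR = 0.629) and 0.15 ± 0.11 (SE, FDR = 0.512).

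Leaving out control 1 widened the cytosolic result. Without it, 15 of 20 cytosolic members were upregulated, against 12.1% of 12966 genes tested in that fit, and none was downregulated, against 9.46%. The only controls in that fit were 2 and 3, the samples with hepatocyte transcripts (Alb at 33.9 and 82.3 CPM). The part of these transcripts in that fit was not tested. The log2 fold change was then above 0 for 17 of 20 (50.3% of all genes) with a median of 0.41, and 16 of 20 had groups that did not overlap with epinephrine higher, against 24.2% of all genes, and 1 (Dars) with epinephrine lower, against 23.2%. Vars went from 0.08 to 0.47 (FDR = 7.95e-07, with a range from that value to 0.969 over its alternatives). Aars went from 0.36 to 0.59 (FDR = 1.35e-09, range up to 0.605) and Wars from 0.40 to 0.59 (FDR = 9.50e-09, range up to 0.503). Gars (0.25) and Kars (0.24) were then upregulated too, whereas Rars (0.12), Farsb (0.05), Farsa (-0.02), Qars (-0.06) and Dars (-0.07) did not pass the threshold. Against the mean of controls 2 and 3, the median log2 level of the cytosolic members was 0.11 in control 1 and 0.47, 0.36 and 0.40 in epinephrine samples 1, 2 and 3.

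The departure of control 1 from controls 2 and 3 moved with base composition and, over all genes, with transcript length. It was largest for Vars (0.95 on the log2 scale), Aars (0.61), Wars (0.49) and Sars2 (0.42), and lowest for Rars (-0.48) and Yars2 (-0.41). Across the 37 members it correlated with transcript GC content at r = 0.522, and at r = 0.392 across 12735 genes. With log2 transcript length it correlated at r = 0.34 across all genes and at r = -0.0764 across the members. The correlations are descriptions, since all points share the same 3 libraries and genes are not independent replicates. With an offset per sample for GC content and transcript length, an alternative chosen after seeing the data, 10 of 20 cytosolic members were upregulated (4.55% of all genes) and 0 downregulated (3.58% of all genes), with a median log2 fold change of 0.34. With DESeq2 on all 6 samples, 9 of 20 were upregulated (3.18% of its genes) and 0 downregulated (2.04%). These 9 were the 4 genes above and Hars, Yars, Mars1, Iars and Eprs.

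**Figure D3:**
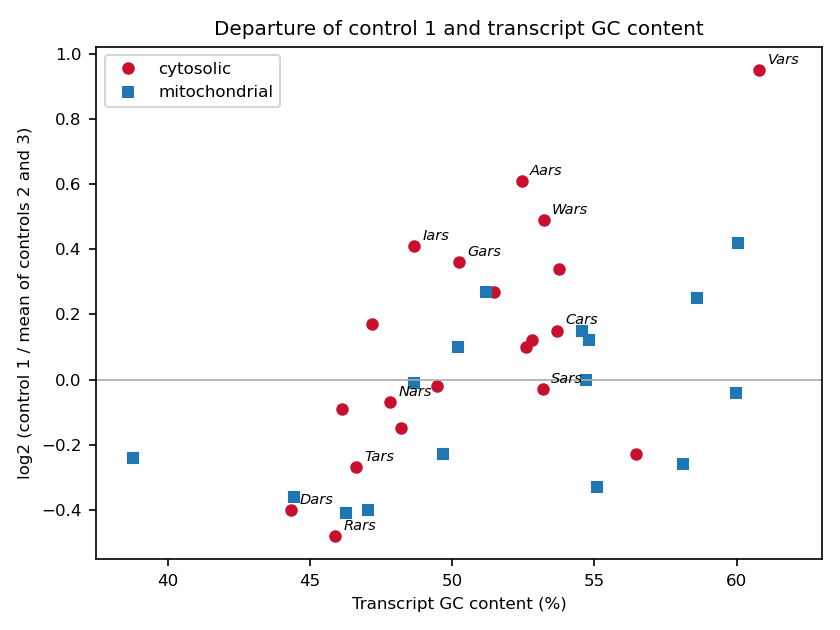
Departure of control 1, as log2 of its CPM over the mean of controls 2 and 3 (vertical axis), against transcript GC content in percent (horizontal axis) for 20 cytosolic members (red circles) and 16 mitochondrial members (blue squares). Vars, the highest point at 0.95, also has the highest GC content.

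Mitochondrial synthetases charge the tRNAs used to translate the proteins encoded in mitochondrial DNA. None passed the FDR threshold with edgeR or with DESeq2. At an unadjusted p under 0.05, 3 of 17 were higher (Mars2, Wars2 and Cars2), against 9.19% of all genes, and 0 were lower, against 7.91%. The same 3 of 17 had groups that did not overlap with epinephrine higher, where 14.3% of all genes did, and 1 of 17 had groups apart with epinephrine lower, where 13.0% of all genes were apart in that direction.

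Wars2, the mitochondrial tryptophanyl-tRNA synthetase, was at 6.60, 7.20 and 8.32 CPM in controls and 11.4, 9.75 and 8.79 CPM after epinephrine (log2 fold change 0.44 ± 0.15 SE, FDR = 0.181). Mars2, which charges methionine, was at 6.86, 8.46 and 7.76 CPM in controls and 9.84, 11 and 9.85 CPM after epinephrine (log2 fold change 0.41 ± 0.13 SE, FDR = 0.151). Cars2 was at 10.4, 11.1 and 9.82 CPM in controls and 13.6, 12.9 and 12.2 CPM after epinephrine (log2 fold change 0.30 ± 0.11 SE, FDR = 0.203). These 3 had the largest sizes of change among the mitochondrial members, and Wars2 and Mars2 were among the least abundant. A further 13 ran from -0.11 (Vars2 and Rars2) to 0.27 (Yars2). Without control 1, 2 of 17 were downregulated, Rars2 (-0.22, FDR = 0.0269, range up to 0.897) among them, against 9.46% of all genes in that fit, and 0 were upregulated, against 12.1%. With the offset for length and GC content, Mars2 was upregulated (0.43, FDR = 0.0382, range up to 0.447).

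For 15 amino acids the cytosolic and the mitochondrial enzyme were compared as a pair of genes. The fold change of the cytosolic gene was above that of the mitochondrial gene in 14 of 15 pairs, with Wars (0.40) and Wars2 (0.44) the exception. Without control 1, Wars was at 0.59 and Wars2 at 0.37, so this pair turned, and the order in the other pairs stayed. The log2 ratio of cytosolic to mitochondrial CPM was computed in each sample. For Iars over Iars2 it was 0.97, 0.67 and 0.66 in controls and 1.30, 1.43 and 1.21 after epinephrine, a difference of 0.55 ± 0.12 (SE), with the overlap of Iars2 and Rab3gap2 named above. For Nars over Nars2 it was 2.97, 2.62 and 2.65 in controls and 3.29, 3.10 and 3.19 after epinephrine, a difference of 0.45 ± 0.12 (SE). In both pairs every epinephrine sample was above every control.

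With all 6 samples, the ratio did not overlap between groups, with epinephrine higher, in 7 of the 15 pairs (Hars, Iars, Lars, Nars, Rars, Sars and Tars). It did so in no pair with epinephrine lower. For the levels of single genes these shares were 14.3% and 13.0% of all genes, and no share was computed over ratios of other gene pairs. Each of these 7 reached the smallest possible p of an exact permutation test, 0.1, and 0.21 after Benjamini-Hochberg adjustment over the 15 pairs, so no single pair could pass. The ratio of Cars to Cars2 differed by 0.17 ± 0.11 (SE, exact p = 0.3), with both genes above 0 in fold change. For Mars1 over Mars2 the difference was 0.04 ± 0.21 (SE, exact p = 0.8). In these 2 pairs the groups overlapped, for Mars1 through control 1 alone. The ratio of Mars1 to Mars2 was 3.62 in control 1 and 3.00 and 3.06 in controls 2 and 3. After epinephrine it was 3.31, 3.11 and 3.37. Leaving out control 1 also set the groups apart, with epinephrine higher, for the Aars, Eprs and Vars pairs. In controls 2 and 3 the ratio was 3.75 and 3.67 for Aars, 5.4 and 5.41 for Eprs, and 2.31 and 2.15 for Vars. After epinephrine it was 4.27 to 4.54, 5.67 to 5.93 and 2.66 to 2.81. For the levels of single genes, 24.2% of all genes were apart in that direction without control 1.

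**Figure D4:**
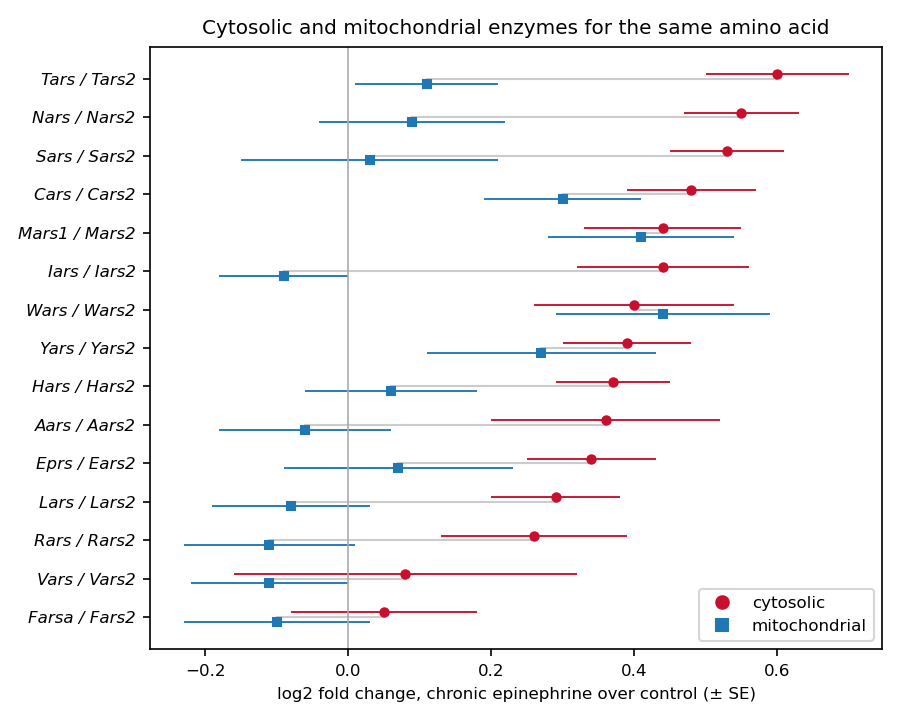
Log2 fold change, chronic epinephrine over control (horizontal axis, ± SE), of the cytosolic (red circle) and mitochondrial (blue square) gene for each of 15 amino acid pairs. In this fit of all 6 samples the red circle lies to the right of the blue square in 14 pairs, all but Wars and Wars2.

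Levels between genes were compared per transcript length, as FPKM in the controls. Cytosolic members had control means from 11.5 FPKM (Farsa) to 114 FPKM (Gars), with a median of 30.3, and mitochondrial members from 0.683 FPKM (Mars2) to 21.1 FPKM (Rars2), with a median of 5.47. Rars2 and Iars2 (11.7 FPKM) were the 2 mitochondrial members above the lowest cytosolic member. In all 15 pairs the cytosolic gene had the higher control mean, although in control 1 Fars2 (11.32 FPKM) was above Farsa (10.6 FPKM). Gars (114 ± 19.1 FPKM, SD, n = 3) and Sars (100 ± 4.82 FPKM) headed the order and lay within 1 SD of Gars of each other. Dars (54.8 ± 7.51 FPKM), Kars (42.8 ± 5.39 FPKM) and Eprs (42.4 ± 4.33 FPKM) followed, and Kars and Eprs did not differ beyond their spread. Of the 4 called genes, Tars (12.8 ± 1.14 FPKM) and Cars (18.8 ± 2.02 FPKM) stood near the lower end of the cytosolic range and Nars (38.2 ± 1.64 FPKM) above its median. Expected counts per sample were 289 to 5130 for the cytosolic members and 60 to 968 for the mitochondrial members, and the SEs of their log2 fold changes were 0.08 to 0.24 and 0.09 to 0.18.

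**Figure D5:**
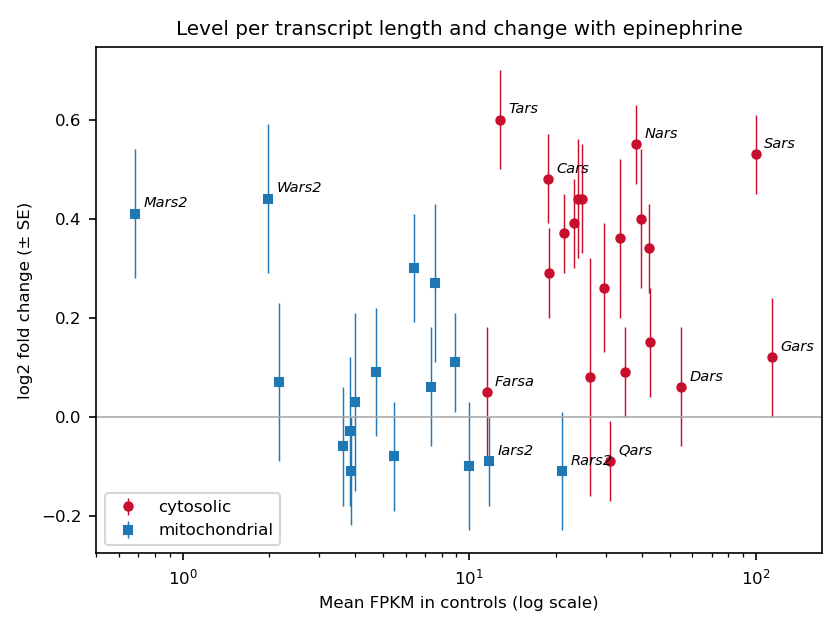
Log2 fold change (vertical axis, ± SE) against mean FPKM in the 3 controls (horizontal log axis) for 20 cytosolic members (red circles) and 16 mitochondrial members (blue squares). Cytosolic members lie at 11.5 FPKM or more, and the 4 genes at an FDR under 0.05 (Tars, Nars, Sars and Cars) are spread from 12.8 to 100 FPKM.

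Synthetases fall into class I and class II by the fold of their catalytic domain. Eprs, whose glutamyl domain is class I and prolyl domain class II, was counted in class I. Among the cytosolic members, 1 of 10 in class I (Cars) and 3 of 10 in class II (Nars, Sars and Tars) were upregulated, with median log2 fold changes of 0.36 and 0.26, where 2.02% of all genes were upregulated. At an unadjusted p under 0.05, 7 of 10 in class I and 4 of 10 in class II were higher, against 9.19% of all genes. Without control 1 the counts at the FDR threshold were 8 and 7, against 12.1%. Of the 8 members of the multisynthetase complex (Dars, Eprs, Iars, Kars, Lars, Mars1, Qars and Rars), none was upregulated at the FDR threshold, 4 were higher at an unadjusted p under 0.05 (9.19% of all genes), 3 were upregulated with DESeq2 (3.18% of its genes), and their median was 0.28. Of the 12 cytosolic members outside the complex, 4 were upregulated and the median was 0.38. Without control 1 the counts were 5 of 8 and 10 of 12, against the same 12.1% of all genes. No cytosolic member of either class, in or outside the complex, was called without epinephrine 1, 2 or 3. The scaffold Aimp1 was at 26.5, 40.5 and 43.9 CPM in controls and 49.4, 49.7 and 47.7 CPM after epinephrine (log2 fold change 0.40 ± 0.17 SE, FDR = 0.271), and without control 1 it was upregulated (0.22, FDR = 0.0219). Aimp2 (0.19 ± 0.11 SE, FDR = 0.436) and Eef1e1 (0.17 ± 0.19 SE, FDR = 0.696) had overlapping groups.

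The list of 12 synthetases known as ATF4 targets held all 4 called genes (2.02% of all genes were upregulated). The list was chosen with earlier results of these data known, so the split it makes is a description and not a test. All 12 had log2 fold changes above 0, with a median of 0.42, and 10 had groups that did not overlap, where 14.3% of all genes were apart in that direction. Of the 8 cytosolic members outside the list, 0 were called, 1 had an unadjusted p under 0.05 with a higher level (9.19% of all genes), 1 was upregulated with DESeq2 (3.18% of its genes), and their median was 0.08. Without control 1, 12 of 12 and 3 of 8 were upregulated, against 12.1% of all genes. In the other fits with 1 sample left out, fewer cytosolic members were called. There were 1 without control 2 and 3 without control 3, all on the list, and 0 without epinephrine 1, 2 or 3. Among the 5 members with the core element in their promoter window, Tars passed the FDR threshold, and Yars (0.39, FDR = 0.0625), Iars, Aars and Gars did not. Of the other called genes, Sars had a window without the core, and Nars and Cars had no window.

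The rest of the ATF4 list, which holds ATF4, other transcription factors and genes of amino acid synthesis and uptake, is given beside the synthetases for comparison. It too was chosen with earlier results of these data known. Of 26 genes tested, 26 had log2 fold changes above 0 (49.5% of all genes), 19 were upregulated (2.02%) and 10 of these passed the 2-fold threshold (0.722%), with a median of 0.77, beside 0.42 for the 12 listed synthetases. Atf4 itself was at 163, 198 and 208 CPM in controls and 349, 340 and 349 CPM after epinephrine (log2 fold change 0.87 ± 0.10 SE, FDR = 0.00581). Asns, which makes asparagine, the substrate of Nars, was at 150, 145 and 153 CPM in controls and 247, 228 and 247 CPM after epinephrine (log2 fold change 0.69 ± 0.08 SE, FDR = 0.00508). Phgdh and Psat1, enzymes of serine synthesis, had log2 fold changes of 1.46 ± 0.15 (SE, FDR = 0.00252) and 0.76 ± 0.09 (SE, FDR = 0.00434), beside 0.53 for Sars. Cth, which makes cysteine, had 1.20 ± 0.17 (SE, FDR = 0.0105), beside 0.48 for Cars. These comparisons share all 6 samples with those of the synthetases. Left-out samples moved the count on this list from 6 to 25 of 26. The 6 were without epinephrine 1, where 47 genes were called in either direction over all genes. The 25 were without control 1, where 12.1% of all genes were upregulated.

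Among 25 other genes of tRNA charging, maturation and export, 1 was upregulated (2.02% of all genes), 0 were downregulated (0.612% of all genes) and the median log2 fold change was 0.06. The called gene was Xpot, the exporter of tRNA from the nucleus, at 111, 106 and 105 CPM in controls and 158, 160 and 156 CPM after epinephrine (log2 fold change 0.55 ± 0.08 SE, FDR = 0.00906). Its groups did not overlap, and its change was close in size to those of Nars and Sars. Over all genes, 108 were called without control 2 and 47, 47 and 77 without epinephrine 1, 2 and 3. The count of calls on this list was 0 in each of those fits. Without control 1 it was 4 of 25, with Xpot and Aimp1 higher (12.1% of all genes) and Sepsecs (-0.18, FDR = 0.0236) and Rtcb (-0.23, FDR = 0.00161) lower (9.46% of all genes), shares no larger than those of genes in general. Tarsl2, a further cytosolic threonyl-tRNA synthetase outside the naming rule, stood at -0.07 ± 0.09 on the log2 scale (SE, FDR = 0.730), beside 0.60 for Tars. Qrsl1 (-0.05), Gatb (-0.15) and Gatc (-0.06), which together make mitochondrial glutaminyl-tRNA in place of a mitochondrial glutaminyl-tRNA synthetase, were not called. The list for sensing uncharged tRNA held Eif2ak4 and the regulators of its kinase, Gcn1 and Impact. Of these 3 genes, 0 were called with edgeR or DESeq2 and 0 had an unadjusted p under 0.05. The log2 fold changes were -0.07 for Eif2ak4, -0.04 for Gcn1 and 0.25 for Impact. Gcn1 was at 132 CPM in control 1 and at 62.7 and 66.6 CPM in controls 2 and 3, and without control 1 it was upregulated (0.39, FDR = 2.11e-05, against 0.954 with all samples).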

How the data were processed

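RNA was sequenced from 3 control and 3 chronic epinephrine samples of MIN6 cells, grouped by their labels. The authors deposited 1 table with an expected count (not normalized) and an FPKM value (scaled by the authors to transcript length and sample total) per gene and sample. GRCm38 is the build named in the submitters' processing notes, and the aligner, counting tool and strand setting are not given in the sources used here. Of the expected counts, 8.34% were not whole, and all were rounded before testing. edgeR 4.0.16 (R 4.3.3) was run with TMM factors, its quasi-likelihood test and no covariate on the 12747 of 22298 genes that filterByExpr kept. FDR is the Benjamini-Hochberg adjusted p over those genes, with a threshold of 0.05. SEs were derived from the log2 fold change and the F statistic, and 3 counts were taken as the detection floor. Single values were compared by exact two-sided permutation tests. The script was tested on simulated counts.

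The members and all gene lists (classes, multisynthetase complex, ATF4 targets, other genes of tRNA charging, sensing, cell type markers) were chosen with earlier results of these data known. Values in every sample were to be given for members at the FDR threshold, the 3 cytosolic members with the largest p, Mars1, the mitochondrial members with an unadjusted p under 0.05 and the 3 with the largest change. Companions were to be named where called or where scaffolds of the complex. Aars, Hars, Atf4, Ddit3, Asns, Phgdh, Psat1, Cth, Tarsl2, Qrsl1, Gatb, Gatc, Sepsecs, Rtcb, Slc2a2 and the sensing genes were named outside that rule after their values were seen. Alternatives were size factors of DESeq2, upper quartile and library size scaling, the Wald test of DESeq2 1.42.0, limma 3.58.1 (trend) on log2 FPKM after adding 1 or 0.1, 2 other filters, a replicate block, each sample left out in turn and, chosen after seeing the data, an offset for GC content and transcript length (natural splines with 4 degrees of freedom each). Positions, exon overlaps and GC content came from the GENCODE M21 annotation and promoter windows from RefSeq (GRCm38.p6). Single values of 1 mitochondrial member, its pair and 1 promoter match are not reported here.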

Additional observations from a re-analysis of the deposited data

How the results depend on the processing

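The 4 cytosolic calls became 9 with the Wald test of DESeq2, 10 with the offset for GC content and length, 0 with the replicate block and 0 to 15 with 1 sample left out, and were 3 or 4 in the other alternatives. Of the 4 genes, Cars did not pass the threshold under library size scaling and both limma fits. The mitochondrial count was 1 with the offset and 0 to 2 with 1 sample left out. The count over all genes, 335, became 734 with DESeq2, 178 with the replicate block, 1036 with the offset and 47 to 2798 with 1 sample left out. The median log2 fold change was 0.30 to 0.41 for the cytosolic members and -0.10 to 0.05 for the mitochondrial members with 1 sample left out, and all other alternatives gave 0.31 to 0.35 and 0.00 to 0.03. Class I members called, 1 in all, became 5 with DESeq2, 7 with the offset and 0 with the block, class II went from 3 to 0 with the block, and the multisynthetase complex from 0 to 3 with DESeq2 and with the offset. The cause of these shifts was not tested. The labels number the samples of both groups 1 to 3, but same-numbered samples deviated from their group means with correlations of 0.0502, 0.0677 and -0.0488, so the numbers were not taken as pairs. With the replicate block the FDR was 0.0526 for Nars, 0.0538 for Sars, 0.0543 for Tars and 0.0716 for Cars, at log2 fold changes of 0.55, 0.53, 0.60 and 0.48. Over all alternatives the FDR ran from 4.40e-08 to 0.112 for Nars, 6.80e-08 to 0.150 for Sars, 2.57e-07 to 0.138 for Tars and 1.74e-06 to 0.245 for Cars.

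Reversals of sign were confined to members with an FDR above 0.6 in the reported fit. In the limma fits with 1 and 0.1 added they were Qars (0.06 in both), Pars2 (0.07 and 0.09) and Sars2 (-0.01 and -0.02), and with the offset Dars (-0.03). With 1 sample left out, the log2 fold change ranged from -0.07 to 0.13 for Dars, -0.05 to 0.14 for Farsa, -0.10 to 0.47 for Vars, -0.14 to 0.01 for Lars2, -0.03 to 0.18 for Nars2, -0.13 to 0.04 for Aars2, -0.02 to 0.15 for Ears2, -0.13 to 0.06 for Pars2 and -0.10 to 0.18 for Sars2. Expected counts per sample were 60 to 416 for 15 of the 17 mitochondrial members, and the SEs of the log2 fold changes, 0.10 to 0.18 for those 15, bound the changes these 6 libraries can resolve.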
